A study of Mus musculus with 3 samples.

Results

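In a single-cell library of mouse patellar tendon at 2 weeks of age, 383 of 4964 cells carried transcripts of at least 3 of 5 genes: Akr1c18, Krtdap, Sbsn, Dpp4 and Aldh1a3. They were chosen by these 5 measured values, so the levels of the 5 genes describe how the cells were picked and were not tested. A gene was counted as detected in a cell at 1 unique molecular identifier (UMI, a tag that counts each captured RNA molecule once). The gate-positive cells made up 7.72% of the cells that passed the filters (exact 95% binomial interval 6.99 to 8.49%, covering counting error only). All 3 libraries of the study together held 6588 such cells. The gate-positive cells were compared with 702 cells of the same library that had both Cd55 and Cd248, 2 surface markers of tendon progenitor cells, and failed the gate.

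All mice are labelled wild type (WT), with no treatment given. The 2-week group is 1 library and the 20-week group is 2 libraries. Patellar tendons were digested with collagenase, blood-lineage and endothelial cells were removed by sorting, and libraries were made with the 10x Chromium 3' v3.1 chemistry. The number, strain and sex of the mice behind each library are not given in the sources used here, so spread between the 20-week libraries may be technical or between animals.

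Pi16 and Dpp4 are known together from a fibroblast type of loose connective tissue and vessel surroundings that is found in many organs. In tendon, the looser tissue around the collagen bundles holds such cells. Dpp4 (also named CD26) is a surface protease. Akr1c18 encodes an aldo-keto reductase, 20-alpha-hydroxysteroid dehydrogenase, which turns progesterone into a weaker steroid. Aldh1a3 encodes an enzyme that makes retinoic acid from retinal. Krtdap and Sbsn encode small secreted proteins known from the upper layers of the epidermis.

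The genes Sbsn, Dmkn and Krtdap lie side by side on chromosome 7, and Akr1c18 lies next to Akr1c14 on chromosome 13. In the GRCm38 annotation (the assembly that mm10 names), Sbsn spans chr7:30751471-30756134 and Krtdap chr7:30787896-30791097, both on the plus strand. Dmkn, which encodes dermokine, another secreted epidermal protein, lies between them at chr7:30763756-30781063. Akr1c18 spans chr13:4132615-4150654 on the minus strand, and Akr1c14, a related 3-alpha-hydroxysteroid dehydrogenase gene, chr13:4049011-4090688 on the plus strand. The 250 bases before the RefSeq start of 4 of these genes (Dmkn left out) are printed because both pairs of neighbours were detected together in part of the cells. For Krtdap and Sbsn the gate itself favours this, since both are gate genes. Akr1c14 was detected in 58 of the 155 gate-positive cells with Akr1c18. The sequences come from RefSeq's promoter table on GRCm38.p6, in which all 4 genes looked up were found. They are given 5′ to 3′ on the gene's own strand. The windows are chr13:4150647-4150896 (minus strand) for Akr1c18, chr13:4059341-4059590 for Akr1c14, chr7:30787655-30787904 for Krtdap and chr7:30751221-30751470 for Sbsn. The Akr1c14 window lies inside the span given above, just before the start of a shorter annotated transcript and not of the longest. Capitals mark matches to any of 5 motifs searched on both strands. They were the TATA box TATAAA, the promoter box CCAAT, the Sp1 type box GGGCGG, the pattern TGANTCA and the nuclear receptor motif AGGTCA. In TGANTCA, a looser form of the AP-1 motif, N is any base.
Akr1c18: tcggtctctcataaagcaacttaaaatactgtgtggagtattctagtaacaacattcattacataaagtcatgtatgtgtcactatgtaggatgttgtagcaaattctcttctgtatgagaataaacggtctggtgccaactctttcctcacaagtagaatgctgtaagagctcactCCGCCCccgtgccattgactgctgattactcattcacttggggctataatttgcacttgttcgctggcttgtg
Akr1c14: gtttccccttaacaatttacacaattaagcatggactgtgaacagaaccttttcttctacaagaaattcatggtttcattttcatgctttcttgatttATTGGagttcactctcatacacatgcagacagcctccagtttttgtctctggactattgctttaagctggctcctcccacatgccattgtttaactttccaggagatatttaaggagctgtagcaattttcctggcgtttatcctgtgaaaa
Krtdap: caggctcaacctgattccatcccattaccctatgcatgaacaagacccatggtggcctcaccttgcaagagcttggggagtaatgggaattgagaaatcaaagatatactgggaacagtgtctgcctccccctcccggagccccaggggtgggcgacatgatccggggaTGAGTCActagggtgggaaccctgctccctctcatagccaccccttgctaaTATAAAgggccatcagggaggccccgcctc
Sbsn: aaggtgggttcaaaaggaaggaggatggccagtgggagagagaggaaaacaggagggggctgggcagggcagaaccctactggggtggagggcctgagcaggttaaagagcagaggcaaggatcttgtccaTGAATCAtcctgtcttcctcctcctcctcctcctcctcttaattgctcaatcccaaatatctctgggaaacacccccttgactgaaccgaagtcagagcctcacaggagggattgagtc

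The TGANTCA match was present in the Krtdap and Sbsn windows, 1 in each, and in neither Akr1c window. It read TGAGTCA in the Krtdap and TGAATCA in the Sbsn window. Of 32817 promoter windows of this length in the table, 6.75% held TGANTCA. The TATAAA match was in the Krtdap window only among the 4, and in 12.4% of all windows. The Akr1c18 window held 1 GGGCGG on the minus strand (32.7% of all windows) and the Akr1c14 window 1 CCAAT on the minus strand (33.8%). AGGTCA was in none of the 4 and in 14.03% of all windows. A match describes letters, not a site or a cause.

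The 3 libraries differed in depth, size and sex-linked genes, and shared few barcodes. The median UMI count per cell was 6570 at 2 weeks, and 2848 and 5132 in 20-week replicates 1 and 2, with 4964, 609 and 1015 cells past the filters. The 2-week library shared 2 barcodes with replicate 1 and 3 with replicate 2, and the 20-week libraries shared 0. Xist was found in 1 cell of the 2-week library, in 424 cells of replicate 1 and in 33 of replicate 2, while at least 1 of 4 Y-linked genes was found in 2884, 0 and 513 cells. Age, library and sex composition therefore cannot be told apart in any comparison across ages. The feature list also holds transgene sequences, and among cells of the looser gate used below tdTomato had 126, 26 and 57 UMIs and EGFP 208, 1 and 0 UMIs in the 3 libraries, although the label is wild type; why was not tested. Of the 8 blood-lineage markers 4 were at 0 in the gate-positive cells and of the 8 endothelial markers 6, with summed levels of 2.72 and 0.815 CPM (UMIs of a gene divided by all UMIs of the group, scaled to 1000000). Summed mural markers stood at 812 CPM in the gate-positive, 567 in the comparison and 13374 in the other cells, and erythroid markers at 10.3, 467 and 112 CPM.

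The gate-positive cells varied in how many of the 5 genes they carried. Just 89 cells (23.2%) had all 5, 117 had 4 and 177 had 3. Just under the threshold were 324 cells with 2 of the genes, then 857 with 1 and 3400 with 0. Dpp4 was detected in 335 of the 383 cells, Krtdap in 332, Aldh1a3 in 317, Sbsn in 305 and Akr1c18 in 155. The most frequent combination after all 5 lacked only Akr1c18 and was found in 72 cells. Akr1c18 was thus the gene that most members lacked.

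Summed over cells, Akr1c18 stood at 411 CPM in the gate-positive cells, 5.26 CPM in the comparison cells and 0.385 CPM in the other 3879 cells of the library. Of the 1550 Akr1c18 UMIs in the library, 1513 (97.6%) lay in gate-positive cells, and the 155 cells that carried it had a median of 5 and at most 71. Krtdap stood at 645, 129 and 12.5 CPM in the same 3 groups. Levels of Sbsn were 320, 50.6 and 15.7 CPM, and those of Aldh1a3 were 256, 49.3 and 4.47 CPM. Dpp4, the least selective of the 5, stood at 343, 137 and 17.4 CPM. These values follow from the gate and carry no test.

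Depth moved with the gate, and its part in the choice of cells was not tested. The median cell had 9326 UMIs and 2897 genes among gate-positive cells, against 7086.5 UMIs and 2413 genes among comparison cells. When every cell was thinned to 2000 UMIs before the gate was applied, 127 of 4728 cells passed (2.69%). The same genes were counted in cells of other types, where free RNA, doublets and expression cannot be told apart. Among 400 cells with at least 4 of 8 chondrocyte markers (median 6670.5 UMIs), Akr1c18 was found in 1, Krtdap in 3, Aldh1a3 in 4, Dpp4 in 12 and Sbsn in 45 (11.2%). Among 915 cells with at least 4 of 8 mural markers (median 7023 UMIs) the counts were 8, 14, 10, 14 and 57 (6.23%). Sbsn had the highest share of the 5 genes in these other types, beside 79.6% in gate-positive and 15.8% in comparison cells.

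The label of a sheath-like fibroblast was only partly borne out by the markers set for it. Of 10 measured genes known from tendon sheath or synovial lining, 0 passed 2-fold on the higher side in the gate-positive cells (0.752% over all genes). On the lower side 3 did (1.08% over all genes), and the median log2 ratio was -0.31. Has1, a hyaluronan synthase, stood at 167 against 86.6 CPM, Pdpn at 169 against 118 CPM and Thy1 at 285 against 203 CPM. Tppp3, a marker of sheath progenitors, stood at 481 against 594 CPM, and Prg4, the lubricin gene of gliding surfaces, at 58.9 against 212 CPM. Pdgfra, Cd44 and S100a4 were also lower, at 203 against 314, 96.4 against 106 and 573 against 723 CPM. The cells are therefore called by their gate, not as sheath cells. C3, the sixth marker given for them and not part of the gate, stood at 43.7 against 33.3 CPM and was detected in 56 of 383 cells.

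What the cells shared beyond the gate was the Cd55 and Cd248 phenotype and the Pi16 program. Cd55, which protects cells from complement, was detected in 360 and Cd248 (endosialin) in 378 of the 383 cells, and 356 (93.0%) had both. Pi16, a secreted peptidase inhibitor, was detected in 375 cells. Cd34 stood at 1365 against 1204 CPM and Clec3b (tetranectin) at 3787 against 3100 CPM, so these 2 markers of the same fibroblast type hardly separated the groups. In the other cells of the library they stood at 178 and 360 CPM.

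Few genes separated the gate-positive from the comparison cells. Of 5850 genes with at least 20 CPM in either group, and with the gate genes, Cd55 and Cd248 set aside, 44 were higher by a factor of 2 or more (0.752%) and 63 lower by as much (1.08%) on the scale of CPM with 10 CPM added. Both groups come from 1 library, so these are folds with counting intervals and no test was possible. The median log2 ratio over all 5850 genes was 0.01. In the plot of ratios for the leading genes, ranked by that fold, Tmeff1, Akr1c14 and Ildr2 lie farthest to the right among genes not carried by a single cell.

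**Figure D1:**
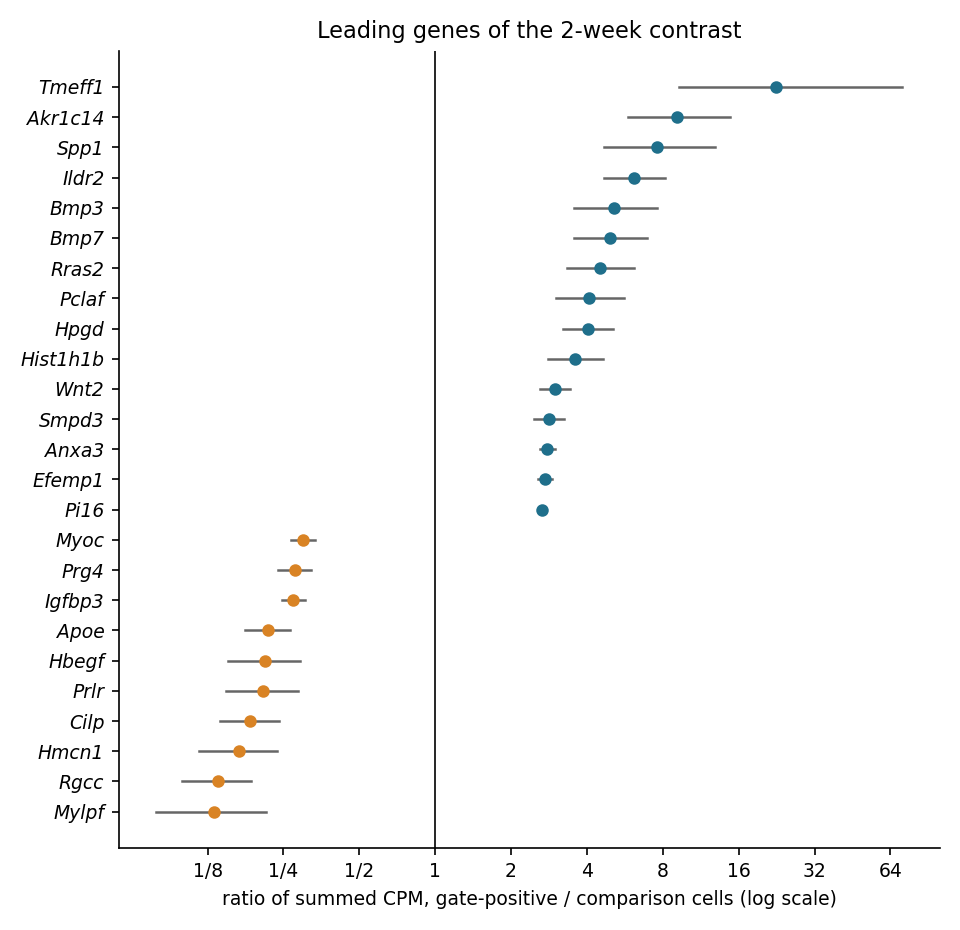
Ratio of summed CPM in the 383 gate-positive over the 702 comparison cells of the 2-week library (x axis, log scale) for the 15 genes of largest fold higher and the 10 of largest fold lower. Points are ratios and lines their exact 95% counting intervals; every interval excludes a ratio of 1, and Tmeff1 has the widest, from 9.29 to 71.5.

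The genes higher in gate-positive cells included Akr1c14 and Hpgd, which encode enzymes that break down steroids and prostaglandins, mostly in members with Akr1c18. Of the 155 members with Akr1c18, 58 had Akr1c14 and 92 had Hpgd, against 17 and 21 of the 228 without it. Akr1c14 stood at 40.7 against 4.48 CPM, a ratio of 9.10 (95% counting interval 5.84 to 14.8), and was detected in 75 of 383 against 22 of 702 cells. It was the only member of the Akr1c list other than Akr1c18 above the filter. The neighbouring genes Akr1c13, Akr1c12 and Akr1c19 were at 0.272 CPM, 0 and 0. Hpgd, which inactivates prostaglandins, stood at 84.7 against 21.03 CPM, a ratio of 4.03 (3.23 to 5.06). Of 13 measured genes of the steroid and prostanoid list, Hpgd was the only gene past 2-fold with 10 CPM added. Ptgs2, the inducible cyclooxygenase that starts prostaglandin synthesis, stood at 40.2 against 18.1 CPM. The steroid receptor genes Esr1 and Nr3c1 stood at 102 against 94.6 and 183 against 216 CPM.

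Dmkn, the gene between Sbsn and Krtdap, was rare but followed its neighbours. It was detected in 21 gate-positive and 5 comparison cells, at 11.7 against 1.56 CPM, a ratio of 7.50 (3.48 to 18.5). Its level was under the 20 CPM filter. The other genes of keratinocytes were not there: 10 of 16 keratinocyte markers were at 0, Krt5, Krt14, Epcam, Cdh1, Trp63 and Ivl among them. Krt10 stood at 51.9 against 49.7 CPM and Perp at 24.4 against 9.93 CPM, and no gate-positive cell had 3 or more of the 16 markers. Mesothelial markers were at 0 for 7 of 8.

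Retinoid genes other than Aldh1a3 did not separate the groups by 2-fold. Aldh1a1 stood at 45.4 against 27.3 CPM. Rbp4, which carries retinol in blood, stood at 24.2 against 52.2 CPM. With 10 CPM added, all 8 measured members of the list lay within 2-fold, with a median log2 ratio of -0.13.

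Genes of the Pi16 and Dpp4 fibroblast type were higher as a list. Of 29 measured members, 28 had a ratio above 1 and 7 were at least 2-fold higher (0.752% over all genes). The median log2 ratio was 0.76 against 0.01 over all genes. The list was drawn up with earlier results of these data known, and is no independent evidence. Pi16 stood at 2387 against 902 CPM, a ratio of 2.65 (2.55 to 2.74). Wnt2, a Wnt ligand, stood at 172 against 57.6 CPM (ratio 2.98, 2.59 to 3.44), and was close to absent from the other cells of the library, at 1.93 CPM. Anxa3, an annexin, stood at 660 against 237 CPM and Smpd3, a neutral sphingomyelinase, at 173 against 61.1 CPM. Dact2 and Cmah were at 136 against 53.4 CPM and 90.4 against 34.3 CPM. Tppp3 was the member below 1.

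Members of the list of Wnt and BMP ligands and antagonists went both ways. Of 24 measured, 6 passed 2-fold on the higher side (0.752% over all genes) and 2 on the lower (1.08%), with 13 above and 11 below a ratio of 1 and a median log2 ratio of 0.13. Bmp7 stood at 46.2 against 9.35 CPM, a ratio of 4.94 (3.57 to 6.96), and was detected in 120 of 383 against 42 of 702 cells. Bmp3 stood at 38.0 against 7.40 CPM and Bmp6 at 27.4 against 7.79 CPM. Wnt10b stood at 60.0 against 24.7 CPM, and Sfrp2, a secreted Wnt antagonist, at 367 against 176 CPM. Sfrp1, another such antagonist, was lower, at 8.69 against 39.7 CPM, as was Gdf10.

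Other leading genes had varied roles. Ildr2, a membrane protein with an immunoglobulin domain, stood at 80.1 against 13.0 CPM. Tmeff1, a membrane protein with follistatin domains, stood at 22.0 against 0.974 CPM, from 81 and 5 UMIs. Rras2, a RAS-related GTPase, stood at 49.97 against 11.1 CPM, and Efemp1 (fibulin-3) at 703 against 257 CPM. The cytokine gene Il18 was at 87.7 against 29.6 CPM and Plat, tissue plasminogen activator, at 127 against 49.3 CPM. Spp1 entered the leading genes through a single cell, which held 101 of its 109 UMIs.

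Cell cycle genes were slightly higher. All 14 measured members of the list had a ratio above 1, with a median log2 ratio of 0.46, and Top2a was the only gene past 2-fold, at 51.3 against 16.6 CPM. Pclaf, a partner of the replication clamp, stood at 45.4 against 11.1 CPM and the linker histone gene Hist1h1b at 63.6 against 17.7 CPM. These came from few cells: Top2a was detected in 22, Pclaf in 30 and Hist1h1b in 17 of the 383, with 63 of its 234 UMIs in a single cell. Depth differed in the same direction between the groups, and its part in this was not tested.

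Of the 63 genes on the lower side, 8 were in the list of other fibroblast states. That list had 16 measured members, of which 8 passed 2-fold on the lower side (1.08% over all genes) and 1, Sfrp2, on the higher, with a median log2 ratio of -1.03. It too was drawn up with earlier results of these data known. Igfbp3, which binds insulin-like growth factors, stood at 112 against 411 CPM, or 3.65-fold lower (3.29 to 4.07). Dlk1, an imprinted gene of immature stroma, stood at 143 against 432 CPM and Mgp, matrix Gla protein, at 436 against 1298 CPM. Smoc2 and Col15a1 stood at 35.9 against 122 CPM and 82.3 against 229 CPM. Basement membrane collagens were lower too, with Col4a1 at 92.3 against 216 CPM and Col4a2 at 55.9 against 144 CPM.

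The list of proteoglycans and mature matrix was mixed, with 4 of 25 measured members past 2-fold on the lower side (1.08% over all genes). Above a ratio of 1 were 10, and the median log2 ratio was -0.18. Cilp, cartilage intermediate layer protein, stood at 17.4 against 94.2 CPM and Prg4 was 3.60-fold lower (3.11 to 4.19). Myoc (myocilin) stood at 101 against 339 CPM, Hmcn1 (hemicentin-1) at 10.0 against 60.2 CPM and the prolactin receptor gene Prlr at 12.2 against 58.8 CPM. Apoe stood at 29.6 against 136 CPM. For 4 of the 10 leading genes a single comparison cell held a large share of the UMIs: 134 of 200 for Mylpf (a fast muscle myosin light chain), 104 of 458 for Rgcc, 107 of 290 for Hbegf and 333 of 1091 for Prg4. Rgcc and Hbegf were higher, not lower, when the gate was set at 2 of 5 genes, at log2 ratios of 1.47 and 1.36.

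The fibrillar collagens and antioxidant genes were close to equal. Col1a1 stood at 12945 against 14377 CPM and Col3a1 at 18372 against 17489 CPM. Of 31 measured antioxidant and detoxification genes, Gpx3 was the only gene past 2-fold, at 40.2 against 13.8 CPM. The hyaluronan list had 10 of 12 measured members above a ratio of 1 and only Cmah past 2-fold, with Ugdh, which makes the sugar precursor, at 559 against 335 CPM. The immediate early and heat shock genes, which respond to tissue digestion, were within 2-fold for all 20 members (median log2 ratio -0.17).

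For Pi16, Akr1c14 and Dlk1 the level changed at every step in the number of gate genes. The steps were read among cells with Cd55 and Cd248, in 219, 258, 225, 156, 114 and 86 cells with 0, 1, 2, 3, 4 and 5 gate genes. Pi16 stood at 238, 840, 1519, 1958, 2430 and 3235 CPM in that order. Akr1c14 stood at 0.662, 2.75, 9.39, 12.1, 35.9 and 99.8 CPM. In the opposite direction, Dlk1 stood at 601, 410, 313, 221, 115 and 29.2 CPM. Prg4, Cilp and Igfbp3 went down less evenly, and Prg4 stood at 289, 116, 245, 58.4, 90.6 and 2.24 CPM. The drop of Prg4 at the threshold is to be read with the single comparison cell, given above, that held a large share of its UMIs. In cells just inside the threshold, with 3 genes, and just outside it, with 2, Efemp1 stood at 519 against 423 CPM, Wnt2 at 134 against 98.3 CPM and Mgp at 554 against 568 CPM. Median depth followed the same order, from 6755 UMIs at 0 genes to 10325 at 5; each level is a share of UMIs, and the part of depth in the steps was not tested.

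**Figure D2:**
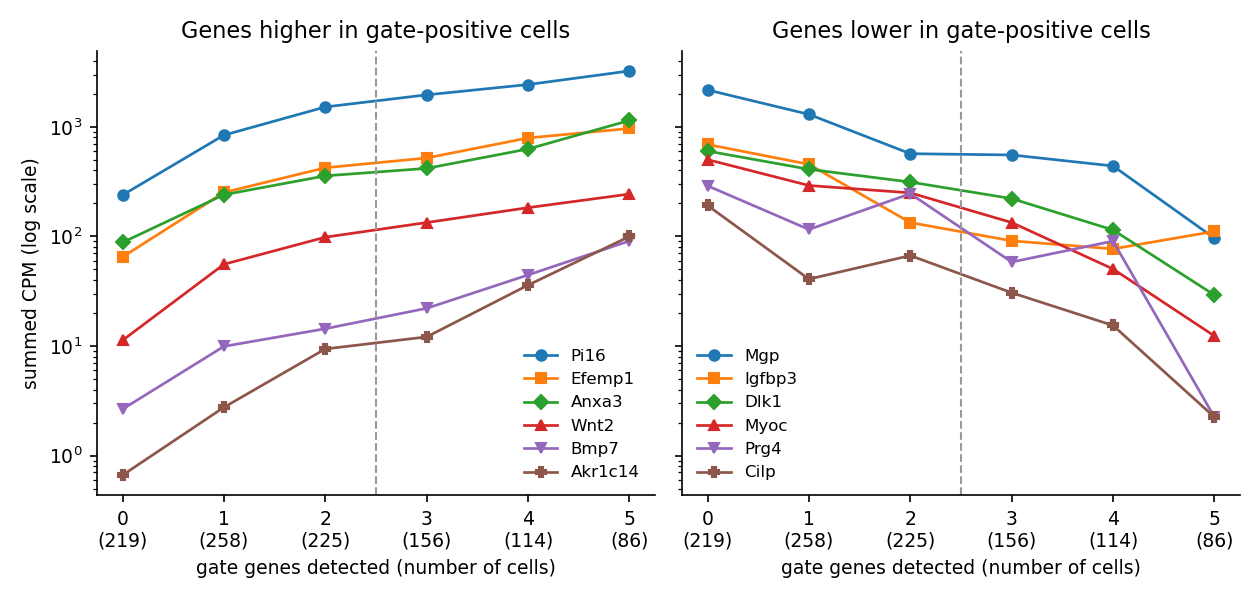
Summed CPM (y axis, log scale) of 6 genes higher and 6 genes lower in gate-positive cells, by the number of gate genes detected (x axis, with the number of 2-week Cd55 and Cd248 cells in brackets); the dashed line is the gate. Pi16 climbs from 238 to 3235 CPM over the steps and Dlk1 goes from 601 to 29.2 CPM, while Prg4, Cilp and Igfbp3 do not go down at every step. Prg4 drops from 245 to 58.4 CPM at the gate, with a large share of its UMIs under the gate in a single cell.

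Akr1c18 divided the gate-positive cells into subsets that differed in named enzymes, channel subunits and matrix genes. The split was chosen after the values were seen, and it is a description of cells from 1 library. Akr1c18 is itself a gate gene, and 89 of the 155 cells with it had all the other gate genes too. Cells without it cannot have the full set, so the number of gate genes differs between the subsets. The levels of Pi16, Akr1c14 and Dlk1 moved with that number, as given above. Its part in the differences between the subsets was not tested. The 155 cells with Akr1c18 had a median of 9433 UMIs and the 228 without it 9171.5. Among 5853 genes above the filter, 60 (1.03%) passed a ratio of 2 in the cells with Akr1c18 and 77 (1.32%) in the cells without it, again with 10 CPM added.

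Hpgd, Akr1c14 and Sfrp2 were found mostly in the cells with Akr1c18. Hpgd was detected in 92 of 155 against 21 of 228 cells and stood at 178 against 19.8 CPM, a ratio of 8.96 (6.47 to 12.7). Akr1c14 was detected in 58 (37.4%) against 17 (7.46%) cells and stood at 87.2 against 8.30 CPM. Sfrp2 was detected in 130 against 65 cells, at 662 against 161 CPM. Pi16 stood at 3011 against 1951 CPM. The gate genes Sbsn and Aldh1a3 stood at 455 against 226 CPM and 362 against 182 CPM. The cells were chosen by these genes, so their levels carry no test. Gpx3, a secreted glutathione peroxidase, stood at 75.3 against 15.7 CPM and Basp1 at 308 against 84.9 CPM.

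Kcnj8 and Abcc9, neighbours on chromosome 6 that encode the pore and the regulatory subunit of a potassium channel known from pericytes, also followed Akr1c18. Kcnj8 was detected in 51 of 155 against 9 of 228 cells, at 52.2 against 5.54 CPM, and Abcc9 in 32 against 8 cells, at 30.4 against 6.46 CPM. The defining pericyte gene Rgs5 was not higher, at 12.6 against 17.1 CPM, and stood at 680 CPM in the other cells of the library. Kcnj8 and Abcc9 are themselves among the 8 mural markers, and over all 8 the summed level was 761 CPM in cells with and 848 CPM in cells without Akr1c18. Only 10 of the 383 cells had at least 4 of the 8.

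Cells without Akr1c18 held most transcripts of another set of genes. Myoc stood at 163 CPM in these cells and 13.2 CPM in those with Akr1c18, or 12.3-fold higher (7.86 to 20.4). Anxa8 stood at 202 against 19.8 CPM and was detected in 88 of 228 against 7 of 155 cells. Crabp2, a retinoic acid binding protein, stood at 58.6 against 2.64 CPM. Prg4 stood at 93.6 against 9.25 CPM, Dlk1 at 214 against 41.0 CPM and S100a4 at 827 against 207 CPM. Spink2 was at 0 of 155 cells, which with a floor of 3 counts makes it at least 16.1-fold higher in the cells without Akr1c18. For Cxcl14 and Spp1 a single cell held 120 of 134 and 101 of 109 UMIs, and for Scx, on the higher side, 75 of 205.

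**Figure D3:**
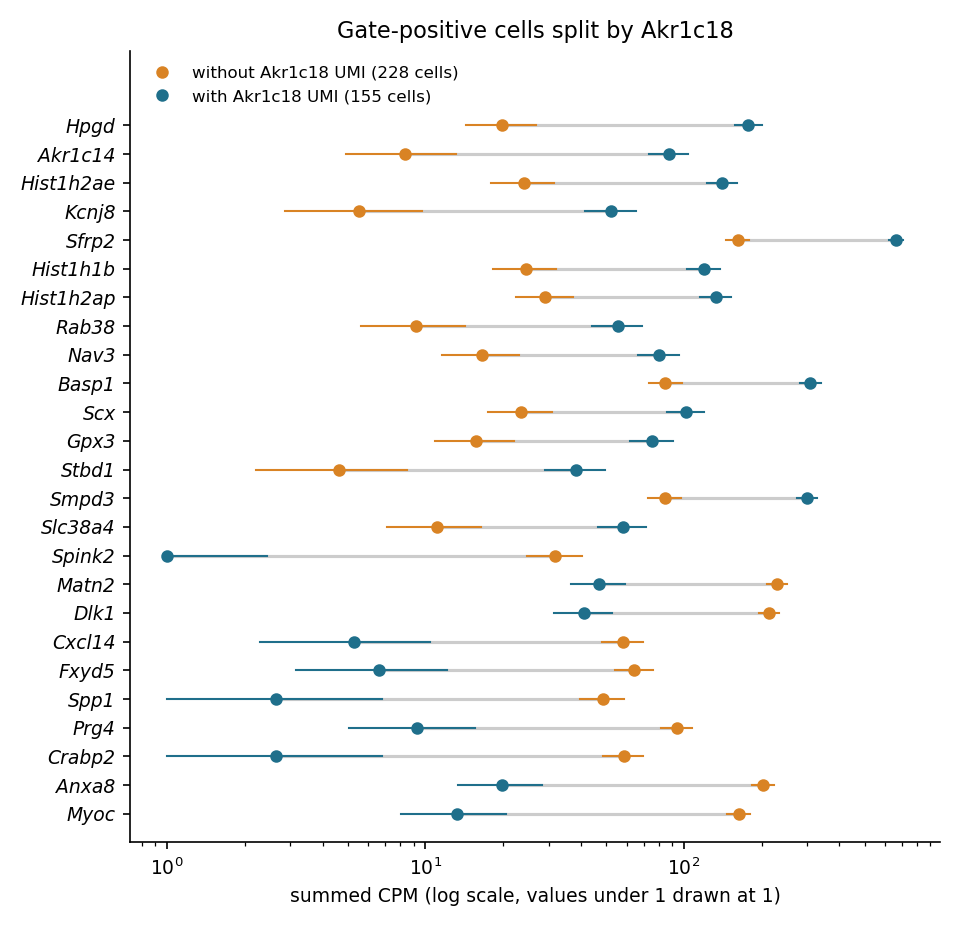
Summed CPM (x axis, log scale) of the 15 genes of largest fold higher and the 10 of largest fold lower in gate-positive cells with Akr1c18 (blue, 155 cells) against those without (orange, 228 cells); coloured lines are exact 95% Poisson intervals and values under 1 (Spink2, at 0) are drawn at 1. Hpgd stands at 178 against 19.8 CPM at the top and Myoc at 13.2 against 163 CPM at the bottom.

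At 20 weeks few cells passed the same gate. In replicate 1 they were 14 of 609 cells (2.30%, 1.26 to 3.83%) and in replicate 2 they were 16 of 1015 cells (1.58%, 0.904 to 2.55%). The 2-week library, at 7.72%, was above both. After thinning to 2000 UMIs the shares were 2.69% at 2 weeks and 1.28% and 0.112% at 20 weeks, from 127, 6 and 1 cells, with 236, 142 and 122 shallower cells left out. The intervals of replicate 1 (0.473 to 2.78%) and of the 2-week library (2.24 to 3.19%) then overlapped. With 1 library at 2 weeks the share was not tested.

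**Figure D4:**
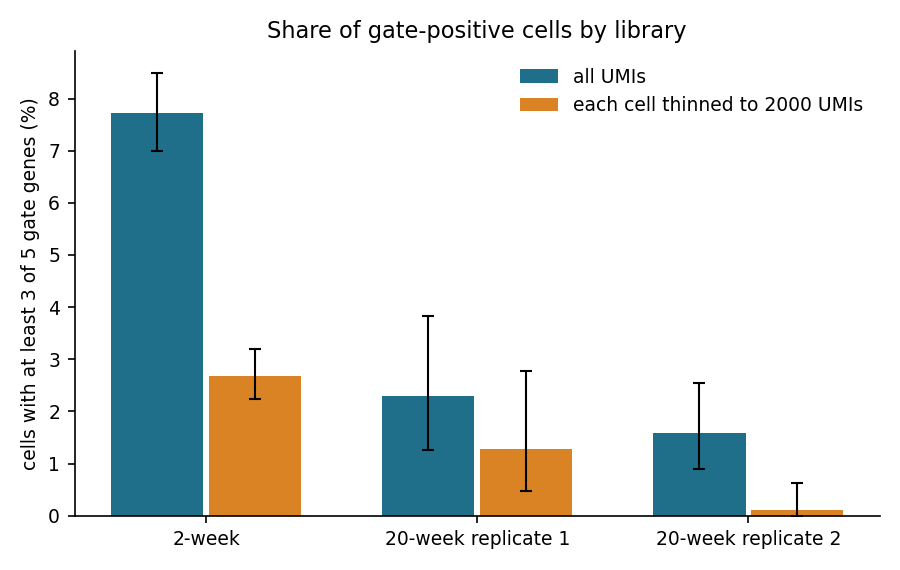
Share of cells with at least 3 of the 5 gate genes (y axis, percent) in each library, from all UMIs (blue) and after thinning each cell to 2000 UMIs (orange); bars start at 0 and lines are exact 95% binomial intervals for counting error only. The 2-week library stands at 7.72% and 2.69%, and 20-week replicate 2 at 1.58% and 0.112%.

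Akr1c18 differed between the 20-week libraries. It was detected in 11 of 609 cells of replicate 1 and in 0 of 1015 cells of replicate 2, which at 3 counts of the total allows a share of up to 0.296% of cells with a UMI. At 2 weeks it was in 174 of 4964 cells (3.51%). Of the 14 gate-positive cells of replicate 1, 6 carried it, at 260 CPM. Xist was found in most cells of replicate 1 but in only 1 cell of the 2-week library, and the part of sex was not tested. Krtdap was detected in 12.6% of cells at 2 weeks and in 6.57% and 3.05% at 20 weeks, while Dpp4 was detected in 17.4%, 11.5% and 19.5%. Sbsn, at 15.1%, 19.9% and 10.2%, followed neither age nor depth.

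With 14 and 16 cells the 20-week gate-positive sums were too small for the planned test, which asked for at least 20 cells in each library. A looser gate of 2 of the 5 genes together with Cd55 and Cd248 gave 28 and 53 cells against 63 and 223 comparison cells. For fewer than 20 cells the plan was to give values with no test. Testing at the looser gate with Cd55 and Cd248, here and across ages, was an addition made after the data were seen. Tested with edgeR's quasi-likelihood test with the library as a block, 4 of 4822 genes were called higher (0.083%) and 13 lower (0.27%) at a Benjamini-Hochberg adjusted p under 0.05. DESeq2 called 6 and 18, and without the library block edgeR called 0 and 0, with 88 genes at an unadjusted p under 0.05. The fit has 1 residual degree of freedom and rests on a spread shared across genes.

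The 4 genes called higher at 20 weeks were Igfbp5, Mfap5, Pdgfc and Prss23, and 7 of the 13 called lower were in the list of other fibroblast states. Igfbp5, an insulin-like growth factor binding protein, was higher by a log2 fold change of 1.45 ± 0.13 (SE, edgeR adjusted p = 0.0082) and in both libraries. At 2 weeks it stood at 3751 against 1612 CPM. Mfap5, a microfibril protein of the Pi16 and Dpp4 list, was higher by 0.77 ± 0.11 (edgeR adjusted p = 0.047). The list of other fibroblast states had 13 measured genes, and the 7 called lower (0.27% over all genes) were Cxcl14, Lpl, Inmt, Penk, Apod, Smoc2 and Cxcl12. That list was drawn up with earlier results of these data known, and is no independent evidence. Icam1, Cebpd, Col4a2, Mt1 and Zfp36 were called lower from other lists. Cxcl14, a chemokine, was lower by a log2 fold change of -4.24 ± 0.37 (edgeR adjusted p = 0.0082), with 32 and 667 UMIs in comparison cells and 0 and 13 in gate-positive cells of the 2 libraries. Icam1, an adhesion molecule, was lower by -3.07 ± 0.32 and Lpl, lipoprotein lipase, by -2.28 ± 0.25.

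At the looser gate the direction of the 2-week genes was mostly kept in the 20-week libraries, which had no part in choosing them. Only 10 of the 28 and 13 of the 53 gate-positive cells there passed the gate of 3 genes. The others had 2 gate genes, and at 2 weeks the 225 such cells with Cd55 and Cd248 were in the comparison group. Of the 44 genes at least 2-fold higher at 2 weeks, 22 were measured in the 20-week fit, 20 had a log2 fold change above 0, with a median of 0.93, and 1 was called. Of the 63 lower genes 34 were measured, 31 lay below 0, with a median of -1.04, and 2 were called. Over all 4822 genes 2334 lay above 0 and the median was -0.01. Pi16 (1.17 ± 0.19, edgeR adjusted p = 0.063), Ildr2 (2.20 ± 0.34, edgeR adjusted p = 0.052) and Anxa3 (0.92 ± 0.15, edgeR adjusted p = 0.066) missed the threshold. Rgcc, lower at 2 weeks at the gate of 3 genes, was at 2.21 ± 0.40. With the gate at 2 of 5 genes it was higher at 2 weeks as well, at a log2 ratio of 1.47.

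**Figure D5:**
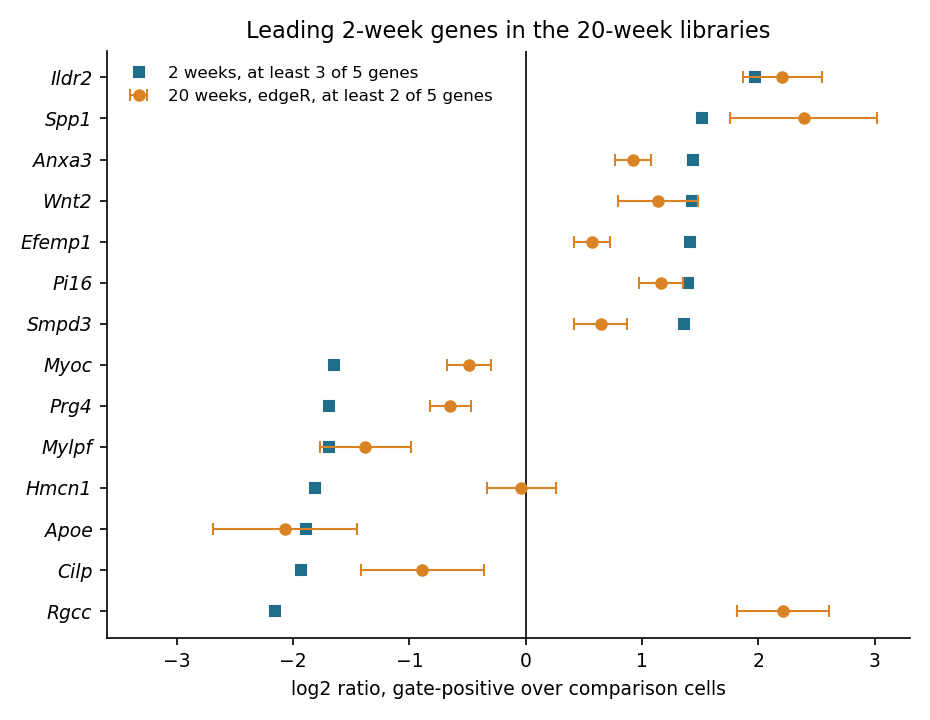
Log2 ratio of gate-positive over comparison cells (x axis) for the leading 2-week genes that were measured at 20 weeks: blue squares, 2 weeks at 3 of 5 genes with 10 CPM added; orange circles, 20 weeks at 2 of 5 genes from edgeR with its standard error. The genes lie on the same side of 0 at both ages except Rgcc, at -2.16 and 2.21, and Hmcn1 is at -0.04 at 20 weeks. The gates differ between the ages, and at 2 of 5 genes Rgcc was at 1.47 at 2 weeks.

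Across ages, cells of the looser gate differed in imprinted, collagen and complement genes among others. The sums held 581 cells at 2 weeks and 28 and 53 at 20 weeks, of which 356, 10 and 13 had at least 3 gate genes. At 2 weeks the levels of several genes moved with the number of gate genes. The part of this difference in mix in the changes across ages was not tested. Of 6984 genes tested with edgeR, 52 were called higher (0.745%) and 91 lower (1.3%) at 20 weeks. The calls include tdTomato on the higher and EGFP on the lower side. DESeq2 called 7 higher and 19 lower. With 1 library at 2 weeks, the fit takes the spread of that sum to be that of the 20-week sums, so its calls compare these libraries and sex moves with them. Xist was called higher from 51 UMIs in replicate 1 and 0 in the other 2 libraries, while the Y-linked gene Ddx3y had 455 UMIs in the younger library and 0 and 49 in replicates 1 and 2.

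Of 17 measured imprinted growth genes 10 were called lower at 20 weeks (1.3% over all genes) and 0 higher, with a median log2 fold change of -2.94. H19 went from 8857 UMIs to 0 in each of the older libraries, so that against a floor of 3 counts over the 20-week sums it was at least 330.2-fold lower. Dlk1 had 1038 UMIs and 0, at least 38.7-fold lower, and Igf2 went from 7710 UMIs to 2 in each of them. Ptn (pleiotrophin), Nrk and the tenocyte gene Tnmd were also at 0 at 20 weeks, at least 65.0-fold, 34.9-fold and 29.3-fold lower. Of 33 collagen and collagen-processing genes 9 were called lower and 0 higher. Col1a1 was lower, at a log2 fold change of -4.31 (SE 0.60, edgeR adjusted p = 5.2e-10). Of 12 measured cell cycle genes 4 were called lower and 0 higher.

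Of 10 measured complement genes 5 were called higher (0.745% over all genes) and 0 lower, with C3, C7, C1s1 and Clu among them. C3, the central complement protein and a marker given for these cells, stood at 42.8 CPM in the younger and at 1366 and 390 CPM in the older libraries, and its edgeR estimate was 4.33 ± 0.80 on the log2 scale (edgeR adjusted p = 1.1e-05). Clu, among the 5 largest increases, was high in replicate 1 only, at 3542 CPM against 6.16 CPM in replicate 2 and 20.5 CPM at 2 weeks. The tenocyte and cartilage genes Comp and Chad followed the same library, at 1048 and 1084 CPM in replicate 1 and 10.3 and 2.05 CPM in replicate 2. C7 rested on 140 UMIs of replicate 2 and 2 of replicate 1. Galnt15, a glycosyltransferase gene, had 3 UMIs in the younger library and 5 and 65 in the older, and Pla1a, a phospholipase, 24 UMIs against 16 and 191. Inmt, a methyltransferase, had 0 UMIs at 2 weeks and was at least 104.3-fold higher at 20 weeks.

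Some leading genes of the 2-week contrast were called in the age fit and others were not, and a miss does not show equal levels. Beside those given below, Hmcn1 was higher at 20 weeks (log2 fold change 2.12), from replicate 2 only. It stood at 103 CPM there and at 8.81 CPM in replicate 1, which was below its 2-week level. Spp1 was also higher (3.22), from replicate 1 only. Igfbp3 was lower (-4.94). Against the floor of 3 counts, Hist1h1b and Pclaf were at least 9.73-fold and 7.12-fold lower. The 29 measured members of the Pi16 and Dpp4 list had a median log2 fold change of 0.25, against 0.03 over all genes tested. Pi16 stood at 2280 CPM at 2 weeks and 5181 and 2951 CPM at 20 weeks. Hpgd was lower, at a log2 fold change of -3.33 (SE 0.78, edgeR adjusted p = 0.0019), with 352 UMIs in the younger library and 2 in each older one. Dmkn was called higher (2.98 ± 0.67, edgeR adjusted p = 9.4e-04) on the strength of replicate 1, the Xist library, at 194 CPM against 14.4 CPM in replicate 2 and 9.95 CPM in the younger library. Myoc and Prg4, both low in gate-positive cells at 2 weeks, were called higher by 4.16 ± 0.78 and 3.17 ± 0.75 on the log2 scale. Free RNA from the other cells of each library was not removed, and its part in these changes was not tested: Prg4 was detected in 68.5% and 54.7% of all cells of the 20-week libraries against 23.2% at 2 weeks.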

How the data were processed

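The deposited matrices hold UMI counts per gene and cell barcode for 1 library at 2 weeks and 2 at 20 weeks. Cell Ranger 6.1.2 and the mm10 build are named in the submitters' processing notes for them. The counting settings, the annotation and any removal of doublets or free RNA are not given in the sources used here. Barcodes were kept from 500 genes and 1000 UMIs upwards, with mitochondrial UMIs of 10% or less, and doublets were not removed from the main values. The gate, its genes, the comparison cells and all gene lists were chosen with earlier results of these data known.

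Counts were summed over cells and scaled to CPM. Ratios are of CPM with exact 95% intervals, which cover counting error only. Genes were ranked on CPM with 10 CPM added, among genes with at least 20 CPM in either group. Gene names follow a fixed rule: the 15 largest folds higher and 10 lower, without mitochondrial, ribosomal protein, haemoglobin and transgene features, the 5 largest called changes in each direction of each edgeR fit, and members of the lists. For the Akr1c18 split the same rule was used. Thinning drew 2000 UMIs per cell. The fits used edgeR 4.0.16 (TMM, filterByExpr, glmQLFit and glmQLFTest, Benjamini-Hochberg over all genes tested) and DESeq2 1.42.0 on counts summed per library, with gate genes, Cd55 and Cd248 left out of counts of calls. CPM given with these fits are scaled by TMM factors. The edgeR fits and the ratios were tested on simulated data. Positions come from GENCODE M21 on GRCm38, which held 32158 of 32285 Ensembl identifiers.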

Additional observations from a re-analysis of the deposited data

How the results depend on the processing

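The share of gate-positive cells at 2 weeks was 14.2% at 2 of 5 genes, 4.15% at 4 of 5, 8.53% with stricter cell filters, 2.69% after thinning and 11.1% without doublet-like cells. The counts of genes past 2-fold, 44 higher and 63 lower, became 137 and 255 after thinning, 76 and 111 with 1 CPM added, 7 and 13 with 50 CPM added, and 320 and 401 against all other 2-week cells. At 4 of 5 genes 103 were lower, and with a gate without Aldh1a3 23 were higher. Spp1 reversed at 4 of 5 genes (-1.33), after thinning (-0.15), without doublet-like cells (-0.21) and against all other cells (-2.35). Rgcc reversed at 2 of 5 genes (1.47) and with gates without Akr1c18 (1.49), Krtdap (1.43) or Dpp4 (1.94), as did Hbegf (1.36, 1.37, 1.62 and 1.74). Prg4 reversed with a gate without Dpp4 (0.19). Of the 25 leading genes the other 21 kept their direction in all 16 alternatives. The causes were not tested.

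The 20-week contrast called 4 higher and 13 lower genes, and 39 and 85 with stricter cell filters, 45 and 116 without doublet-like cells, 15 and 24 without the requirement of Cd55 and Cd248, 41 and 95 with DESeq2 size factors in edgeR, 35 and 104 with no filter, and 0 and 0 with no replicate block. The number of calls is thus not stable, and the cause was not tested. The age fit called 52 and 91, and 7 and 19 with DESeq2, while 88 were higher without the requirement of Cd55 and Cd248. Leaving out a 20-week library leaves no residual degrees of freedom, so only values were compared: leaving out each replicate in turn put Clu between -0.92 (without replicate 1) and 6.86 (without replicate 2). The gate at 4 of 5 genes, and thinning, left fewer than 20 cells in a 20-week library and were not run there.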
